A study of Arabidopsis thaliana with 4 samples.

Results

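The genes described here encode enzymes that make and break down abscisic acid (ABA), the plant hormone that holds back seed germination and drives responses to drought. They were chosen by name from the pathway and not by their measured values, although earlier results of these data were known. The list was NCED3, NCED4, NCED5, NCED6, NCED9, ABA1, ABA2, CYP707A1, CYP707A2 and CYP707A3. Of these 10 genes, 8 had a row among the 23932 features of the deposited expression table, and all 8 passed the filter on low values. ABA2, the xanthoxin dehydrogenase gene, and CYP707A3, a hydroxylase gene close to CYP707A1, had no row that symbol, locus code or synonym could find, and they were not analysed here.

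RNA from germinating Arabidopsis thaliana seedlings was sequenced in 4 samples, with 1 sample standing for each group. Wild-type control seedlings (Columbia, Col-0) and ZFP3 overexpressing control seedlings (ZFP3ox) grew on 5 µM estradiol and were harvested at 36 h. Wild-type ABA and ZFP3ox ABA seedlings grew on 5 µM estradiol with 2.5 µM ABA and were harvested at 84 h. All 4 groups therefore met estradiol, the usual inducer of transgenes of this kind, and the labels do not say how many lines or plates stand behind a sample. The effect of ABA and that of the later harvest, chosen to give radicles of a similar stage, cannot be told apart.

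In plants ABA is made from carotenoids. ABA1, a zeaxanthin epoxidase, makes the epoxidised carotenoids in plastids. The 9-cis-epoxycarotenoid dioxygenases (NCEDs) cut them to xanthoxin, which is regarded as the committed step, and ABA2, an aldehyde oxidase and its cofactor enzyme complete the hormone in the cytosol. CYP707A enzymes, cytochrome P450 proteins, hydroxylate ABA and start its breakdown. In Arabidopsis NCED3 is known for drought-induced synthesis, NCED6 and NCED9 for synthesis in developing seeds, CYP707A2 for the loss of ABA when seeds imbibe, and CYP707A1 for breakdown during seed development. NCED4, also called CCD4, cleaves carotenoids but is not counted among the enzymes that feed ABA synthesis.

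The region before each gene was read for short motifs, none of which was present before all 8 measured genes. Below are the 300 bases before the annotated gene start, 5′ to 3′ on the gene's strand, from RefSeq's TAIR10.1 assembly, with each ACGTG, the core of the ABA-responsive element, in capitals on either strand. NCED3 (chr3:4834016-4834315, minus strand) and NCED5 (chr1:10571010-10571309, plus strand) are shown because they had the largest ratios for ABA in ZFP3ox, and NCED9 (chr1:29492876-29493175, minus strand) and CYP707A1 (chr4:10520959-10521258, plus strand) because both hold the palindrome CACGTG, known as the G-box.
NCED3: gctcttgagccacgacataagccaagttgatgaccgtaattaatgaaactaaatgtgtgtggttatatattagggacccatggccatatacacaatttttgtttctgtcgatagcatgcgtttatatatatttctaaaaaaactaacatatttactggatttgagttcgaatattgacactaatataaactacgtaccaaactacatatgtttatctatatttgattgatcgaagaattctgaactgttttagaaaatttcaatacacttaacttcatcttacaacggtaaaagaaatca
NCED5: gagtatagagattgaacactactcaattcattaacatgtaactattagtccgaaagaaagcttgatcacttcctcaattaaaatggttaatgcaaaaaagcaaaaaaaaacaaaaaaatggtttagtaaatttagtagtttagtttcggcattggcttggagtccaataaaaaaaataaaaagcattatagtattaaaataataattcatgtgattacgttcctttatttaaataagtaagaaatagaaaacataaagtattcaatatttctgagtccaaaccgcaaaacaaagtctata
NCED9: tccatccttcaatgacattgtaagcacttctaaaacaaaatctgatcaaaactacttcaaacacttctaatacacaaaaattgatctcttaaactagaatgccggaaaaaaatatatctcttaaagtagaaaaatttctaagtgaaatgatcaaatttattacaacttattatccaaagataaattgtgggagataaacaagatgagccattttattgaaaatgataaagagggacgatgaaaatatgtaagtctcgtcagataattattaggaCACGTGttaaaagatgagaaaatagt
CYP707A1: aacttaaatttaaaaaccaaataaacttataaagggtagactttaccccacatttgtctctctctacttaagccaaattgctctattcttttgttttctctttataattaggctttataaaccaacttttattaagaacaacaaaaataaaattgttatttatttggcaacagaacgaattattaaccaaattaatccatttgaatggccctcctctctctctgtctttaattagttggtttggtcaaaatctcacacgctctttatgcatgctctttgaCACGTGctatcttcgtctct
A match of ACGTG was present before 3 of the 8 measured genes, NCED9, CYP707A1 and ABA1, and in 25.5% of the 27561 upstream regions of this length before protein-coding genes. The G-box, which contains ACGTG on both strands, was present in 7.1% of them. The RY core CATGCA (10.2% of all regions) was present before CYP707A1, the W-box core TTGAC (50.4%) before NCED3, NCED6, NCED4, ABA1 and CYP707A1, and the dehydration element core CCGAC (13.9%) before NCED4. In CYP707A1 the last base of a W-box core is the first base of the G-box, and in ABA1 a W-box core overlaps an ACGTG by 2 bases. NCED5 and CYP707A2 held none of these letters within the window, which says nothing about sites farther away.

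**Figure D1:**
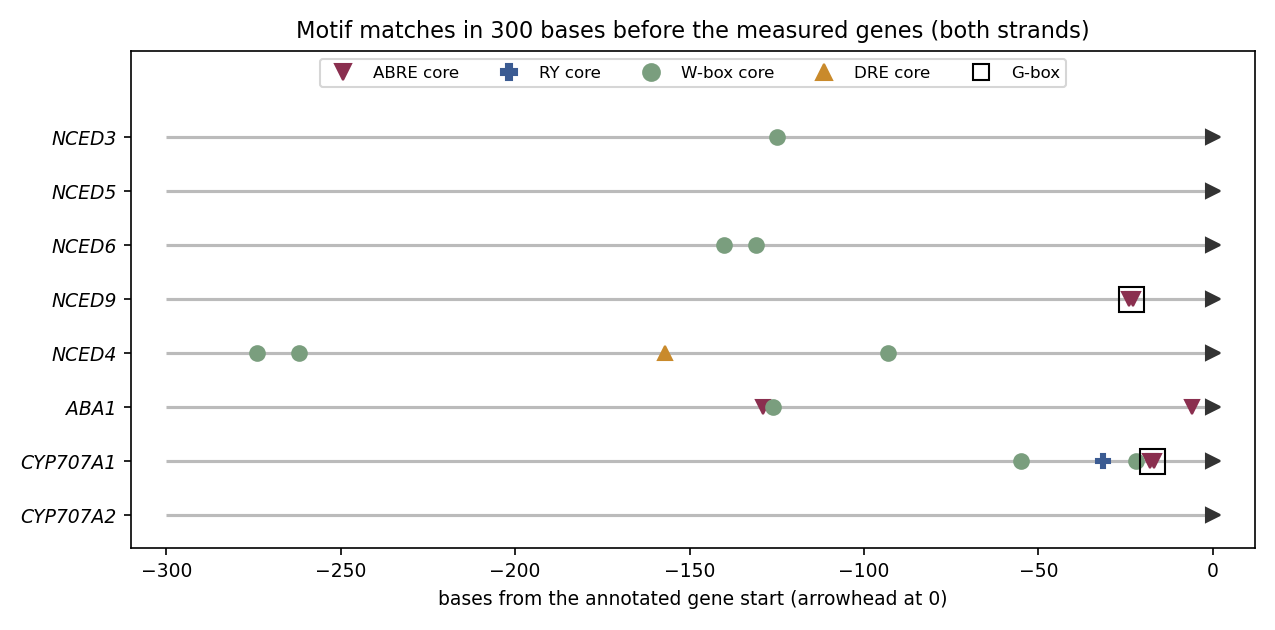
Matches of 5 short motifs, on either strand, in the 300 bases before the start of the 8 measured genes (x axis, bases from the annotated start; 1 line per gene). The G-box squares of NCED9 and CYP707A1 lie within 26 bases of the start, at bases -26 to -21 and -20 to -15, and NCED5 and CYP707A2 have no symbol.

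The table gives levels in 2 columns for each sample, called column set 1 and column set 2. Set 1 is read as RPKM (reads scaled by gene length and by library size). Set 2 values rise in equal steps whatever the gene. In ZFP3ox control NCED3, UGT71B6 and NCED5 had 1.58, 1.69 and 1.79, and NCED9, UGT71C5 and EM6 had 2.11, 2.21 and 2.32. Set 2 therefore reads as a scaled count not divided by gene length. Its levels and percentiles across genes also reflect length. The unit RPKM is kept below for both sets. The column headers number the sets, but neither labels nor headers say how they differ, so both columns of a sample count as 1 replicate and ratios were taken within a set. Percentages of all genes refer to the 22646 genes kept, those with at least 1 RPKM in both columns of at least 1 sample. The sets have different scales: the median kept gene lay at 11.01 to 15.91 RPKM in set 1 and at 3.48 to 4.47 RPKM in set 2. A single feature, AT3G43990, held 18.05% of the summed RPKM of set 2 in wild-type control and 28.69% in ZFP3ox control. The top gene of set 1 held 3.42% to 6.9%. The part of AT3G43990 in the set 2 ratios was not tested. In set 1 the fifth percentile of kept genes reached 3.68, 6.14, 5.48 and 7.83 RPKM for the control and ABA samples of wild type and then those of ZFP3ox, against 0.74 to 1.01 RPKM in set 2. Steps in the low values, multiplied by gene length, put set 1 at about 2.63 to 4.08 megareads per sample. That reading does not suit set 2, whose steps did not follow gene length, and the depth of set 2 was not worked out here. ZFP3, the driven gene, had log2 ratios of ZFP3ox to wild type of 4.24 without ABA and 3.44 with it, in the direction of the labels. The dehydrin gene RAB18, known to respond to the hormone, had log2 ABA ratios of 5.33 in wild type and 3.31 in ZFP3ox.

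Markers of other tissue states moved strongly between the samples. All 5 genes of greening seedlings examined (CAB1, CAB2, LHCB2.1, RBCS1A and PSBO1) were detected in every column, and their summed level in set 1 was 2200 RPKM for the wild-type control, 214 with ABA, 3246 for the ZFP3ox control and 1695 with ABA. In set 2 the sums were 1414, 114, 1638 and 493 RPKM. The 6 seed reserve genes (CRA1, CRC, OLEO1, OLEO2, EM6 and PAP85) summed to 119, 2368, 118 and 717 RPKM in set 1 and to 27.0, 397, 24.4 and 382 RPKM in set 2, in the same order. None of these 11 markers was at 0. Of the endosperm markers EPR1 was not analysed here, and MAN7, an endo-beta-mannanase gene, had 9.72, 46.67, 9.60 and 18.10 RPKM in set 1 and 3.05, 14.64, 2.11 and 8.87 in set 2. In whole seedlings, fewer cells of a type and less RNA per cell cannot be told apart, and the part of these tissue states in the values below was not tested.

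Among the synthesis genes, ABA1 (chromosome 5, 16 exons) stood highest in most columns. Its set 1 level was 40.75 RPKM for the wild-type control, 69.53 with ABA, 24.84 for the ZFP3ox control and 42.39 with ABA. Set 2 gave 31.39, 11.42, 14.64 and 10.38 RPKM. It was lower in ZFP3ox than in wild type in all 4 ratios, by -0.69 and -1.05 without ABA and by -0.70 and -0.13 with it, set 1 first. Across all genes 6.51% were lower in all 4 ratios. Relative to the median ratio of all genes in each set, ABA1 and CYP707A1 lay below in all 4, as 7.93% of genes did, and NCED4, NCED5 and NCED9 above in all 4, as 8.31% did. NCED5 was above by a negligible margin in set 2 without ABA, where its ratio and the median were both -0.20. For ABA1 the sets went opposite ways between treatments, with ABA ratios of 0.76 and -1.38 for wild type against 0.75 and -0.46 for ZFP3ox.

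NCED3 (locus AT3G14440, a single-exon gene on chromosome 3) was the member with the widest range over the 4 samples, 1.39 on the log2 scale in the mean of the sets. That order came from set 2, where its range was 2.22, while in set 1 its range of 0.56 was the narrowest of the 8 genes and that of NCED4 the widest, at 2.33. Set 1 gave 8.98 RPKM for the wild-type control, 10.15 with ABA, 8.35 for the ZFP3ox control and 12.79 with ABA. Set 2 gave 6.11, 5.43, 1.58 and 10.99 RPKM. ZFP3ox control was thus the lowest sample and ZFP3ox ABA the highest in both sets, with a far wider gap in set 2. In wild type NCED3 hardly differed between treatments, with ABA ratios of 0.16 and -0.15, while in ZFP3ox the ratios were 0.56 and 2.22. As a rank among the 22646 kept genes, NCED3 went from percentile 19.4 in ZFP3ox control to 85.8 in ZFP3ox ABA in set 2, and from 20.7 to 31.3 in set 1. In wild type it went from percentile 63.4 in control to 59.2 with ABA in set 2, and from 40.2 to 27.0 in set 1. By rank, wild-type control was therefore the highest sample in set 1.

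NCED5 (chromosome 1, a single exon) was highest in ZFP3ox ABA in both sets as well. Its levels were 7.48, 10.35, 11.01 and 17.22 RPKM in set 1, in the same order of samples. In set 2 they were 2.20, 3.78, 1.79 and 6.65 RPKM. With ABA present the genotype ratio was 0.68 in each set, which is the closest match between the sets among the 8 genes in that comparison. Without ABA it was 0.50 and -0.20. The percentile of NCED5 moved with ABA in ZFP3ox from 37.0 to 56.7 in set 1 and from 23.4 to 69.3 in set 2. In wild type it moved from 31.7 to 28.4 in set 1 and from 22.1 to 43.5 in set 2.

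The seed-associated dioxygenase genes behaved differently from each other. NCED6 (chromosome 3) had 10.82, 10.61, 10.53 and 17.67 RPKM in set 1 and 4.76, 12.61, 13.48 and 15.02 RPKM in set 2. In set 1 only ZFP3ox ABA stood apart, whereas in set 2 only wild-type control did, on the low side. NCED9 (chromosome 1) was among the weakest members, with 3.95, 5.37, 6.72 and 7.85 RPKM in set 1 and 1.42, 1.84, 2.11 and 2.42 RPKM in set 2. It was the only member higher in ZFP3ox in all 4 genotype ratios (0.64 and 0.36 without ABA, 0.47 and 0.27 with it), where 7.82% of all genes were. Its set 1 values lay between percentiles 2.8 and 10.8, close to the fifth percentile of the columns.

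NCED4 (chromosome 4) had 3.54, 7.40, 21.84 and 10.25 RPKM in set 1 and 5.40, 2.67, 4.74 and 5.65 RPKM in set 2. ZFP3ox control was the highest sample in set 1, and in set 2 it lay below wild-type control. Its percentile in ZFP3ox control was 74.1 in set 1 and 62.5 in set 2, against 4.2 and 58.1 in wild-type control.

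On the breakdown side, both measured hydroxylase genes were higher with ABA in both genotypes and both sets, as were 19.6% of all genes. CYP707A1 (chromosome 4, 7 exons) had 25.59, 39.05, 28.02 and 38.78 RPKM in set 1 and 4.76, 7.55, 3.69 and 5.54 RPKM in set 2. Its ABA ratios were 0.59 and 0.57 for wild type, with 0.46 and 0.48 for ZFP3ox, so the sets lay close together, and both ABA samples lay above both control samples in each set. CYP707A2 (chromosome 2, 9 exons) had 10.02, 23.44, 20.22 and 35.33 RPKM in set 1 and 7.88, 11.33, 7.06 and 10.08 RPKM in set 2. Those of CYP707A2 were 1.15 and 0.47 for wild type, with 0.78 and 0.46 for ZFP3ox, and again both ABA samples exceeded both control samples in each set. All these hydroxylase ratios also exceeded the median ratio of all genes in the same set and genotype, which 10.9% of all genes did.

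**Figure D2:**
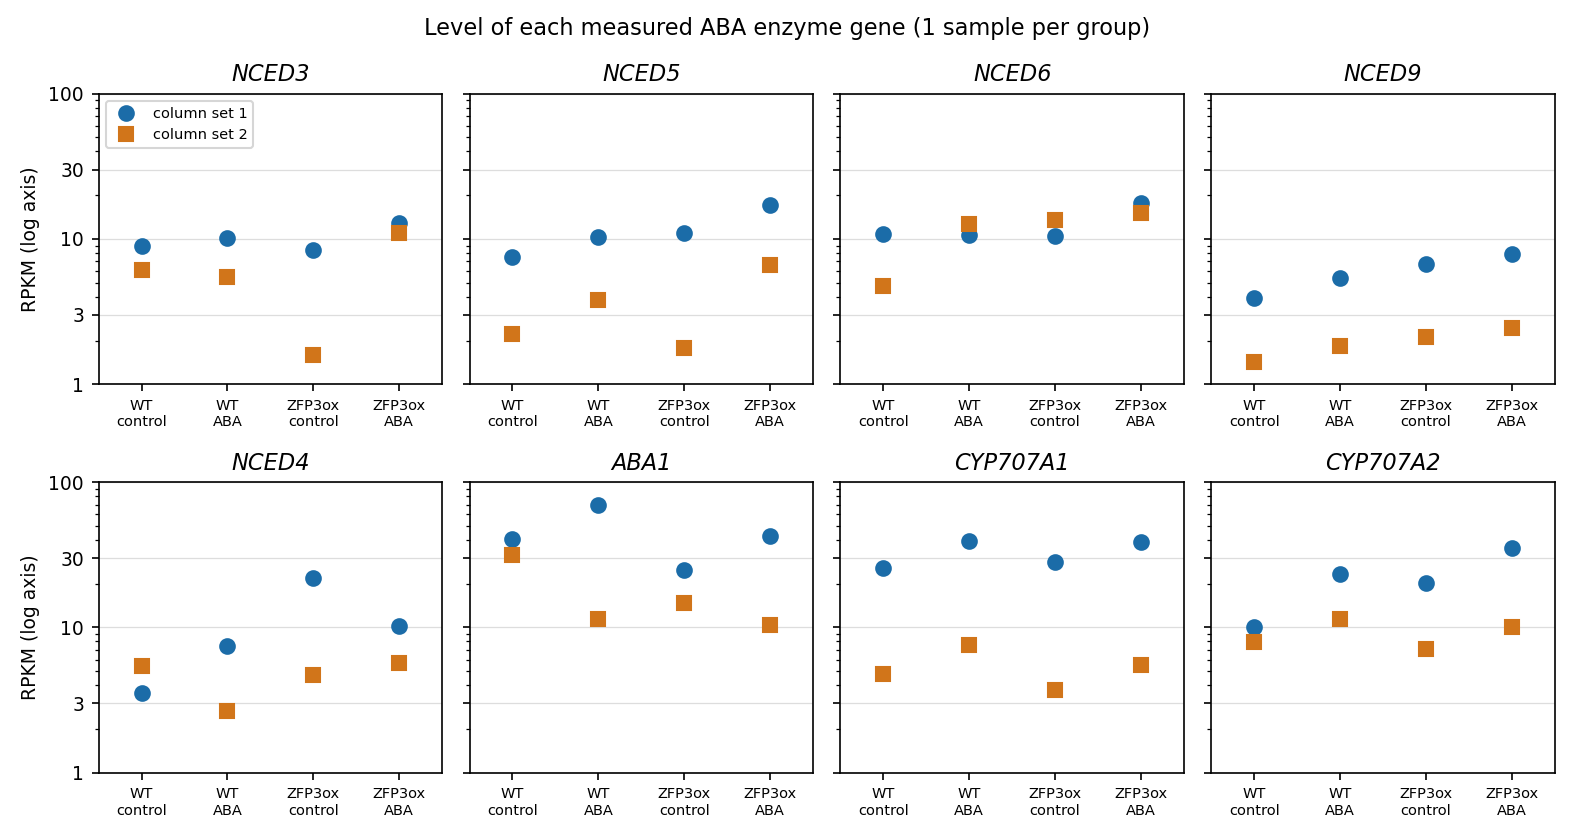
RPKM (log axis) of the 8 measured genes in the 4 samples, 1 sample per group, with circles for column set 1 and squares for column set 2. Set 2 values show no division by gene length. The CYP707A1 and CYP707A2 points are higher in the ABA samples than in the control samples of the same set, NCED3 is lowest in ZFP3ox control in both sets, at 8.35 and 1.58 RPKM, and the NCED4 high of 21.84 RPKM is in set 1 only.

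The order of the genes by level differed between the sets, which are unlike measures here, since set 2 values show no division by gene length. ABA1 was first in 3 of the 4 samples in set 1, with CYP707A1 first in ZFP3ox control, and CYP707A1 was first or second throughout. In set 2 ABA1 was first in both control samples and NCED6 in both ABA samples. NCED9 or NCED4 was last in every set 1 column. In set 2 NCED9 was last in all columns but ZFP3ox control, where NCED3 was. Neighbours such as NCED3, NCED5 and NCED6 in wild-type ABA, at 10.15, 10.35 and 10.61 RPKM in set 1 and 5.43, 3.78 and 12.61 in set 2, did not keep their order between the sets.

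NCED3, NCED5, NCED6 and NCED9, the dioxygenases counted for ABA synthesis here, were also added up. In set 1 their sum was 31.23 RPKM for the wild-type control, 36.48 with ABA, 36.61 for the ZFP3ox control and 55.53 with ABA, and in set 2 it was 14.49, 23.66, 18.96 and 35.08 RPKM. ZFP3ox ABA was the highest and wild-type control the lowest in both sets. In set 1 the median kept gene had the same lowest and highest sample, at 11.01, 14.06, 13.57 and 15.91 RPKM in the same order. In set 2 it did not, at 4.47, 4.33, 3.48 and 4.23 RPKM. The part of the column scale in these sums was not tested. CYP707A1 and CYP707A2 together gave 35.61, 62.49, 48.24 and 74.11 RPKM in set 1 and 12.64, 18.88, 10.75 and 15.62 RPKM in set 2. The dioxygenase sum divided by the hydroxylase sum was lowest in wild-type ABA in set 1 (0.584, against 0.749 to 0.877 in the other samples) and lowest in wild-type control in set 2 (1.15, against 1.25 to 2.25), so the sets do not give the same order. Set 2 sums add values not divided by gene length, so the size of this ratio is not comparable between the sets.

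**Figure D3:**
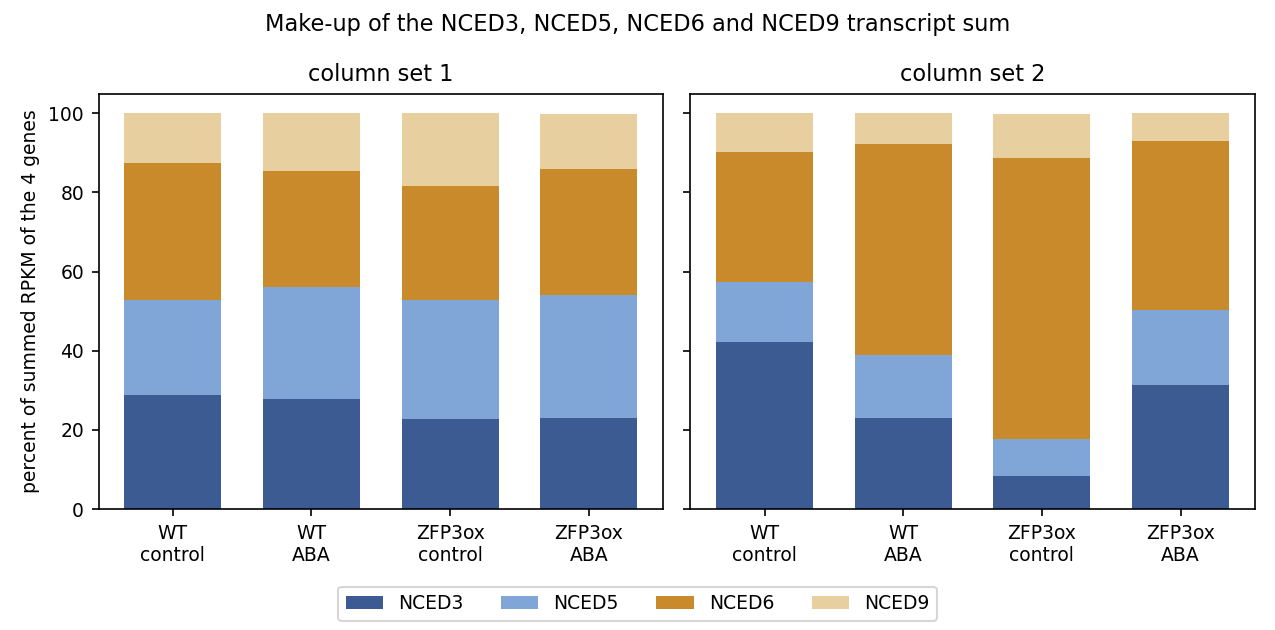
Share of each gene in the summed RPKM of NCED3, NCED5, NCED6 and NCED9 (y axis, percent) in each sample, for column set 1 and column set 2. Set 2 values show no division by gene length, so shares can be compared within a set only. In set 1 the make-up is similar in all samples, with NCED3 at 22.8% to 28.8%, while in set 2 NCED3 ranges from 8.3% in ZFP3ox control to 42.2% in wild-type control and NCED6 from 32.9% to 71.1%.

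The members were then set against a size rule of 2-fold in the mean of both sets, a log2 ratio of 1 or more on the scale of log2(RPKM + 1). With 1 sample per group, no ratio between 2 samples has a replicate check or a p-value. Without ABA, 1 of 8 genes was higher in ZFP3ox by this rule, NCED4 (mean 1.09), and 0 were lower, where 0.954% and 1.58% of all genes were. That call came from set 1, since its ratios were 2.33 and -0.16. In both sets 1 gene was higher and 2 were lower, where 21.0% and 20.5% of all genes were, and the other 5 genes differed in sign between the sets. The median ratio of the 8 genes was 0.28, with 0.31 and -0.18 in the sets, beside 0.01 over all genes, with 0.21 and -0.20.

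With ABA, 0 of 8 genes passed in the comparison of ZFP3ox with wild type, where 2.7% of all genes were higher and 2.03% lower. NCED5 (0.68), NCED4 (0.64; 0.42 and 0.86 in the sets) and NCED3 (0.60; 0.31 and 0.90) had the largest ratios. All 5 dioxygenase genes were higher in ZFP3ox in both sets, as were 31.3% of all genes. ABA1 and CYP707A1 were lower in both, as were 22.3% of all genes, although CYP707A1 by a negligible -0.01 in set 1. The median of the 8 genes was 0.42, beside 0.05 over all genes. In the same comparison the summed greening markers were higher in ZFP3ox and the summed seed reserve markers lower, as the sums given above show. By gene, 4 of 5 greening markers were higher and 5 of 6 reserve markers lower in both sets. The others went against their sums in set 2: RBCS1A had 86.92 RPKM in wild-type ABA and 75.1 in ZFP3ox ABA, and OLEO2 98.43 and 310.39.

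Between the wild-type samples, ABA against control, 0 of 8 genes passed the rule, where 4.65% of all genes were higher and 2.86% lower. CYP707A2 (0.81), NCED6 (0.61; -0.03 and 1.24 in the sets) and CYP707A1 (0.58) had the largest ratios, and NCED3 was at 0.01. In both sets 4 genes were higher and 0 lower, where 34.8% and 18.2% of all genes were. The median was 0.40 beside 0.15 over all genes. RAB18 and the seed reserve markers were many times higher in the same sample, so the enzyme genes differed far less between these samples than those markers did.

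For ABA against control in ZFP3ox, 2 of 8 genes were higher and 0 lower, where 4.55% and 2.23% of all genes were. NCED3 had a mean log2 ratio of 1.39, a fold of 2.62, and NCED5 one of 1.03, a fold of 2.04. In set 1 neither reached 2-fold (0.56 and 0.60), while in set 2 both did (2.22 and 1.46). Relative to the median ratio of all genes, which was 0.21, NCED3 lay at 1.18 and NCED5 at 0.82, below the rule. In both sets 6 genes were higher and 0 lower, where 45.3% and 17.0% of all genes were. The other members ranged from -0.40 for NCED4 to 0.62 for CYP707A2, and the median of the 8 genes was 0.44.

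**Figure D4:**
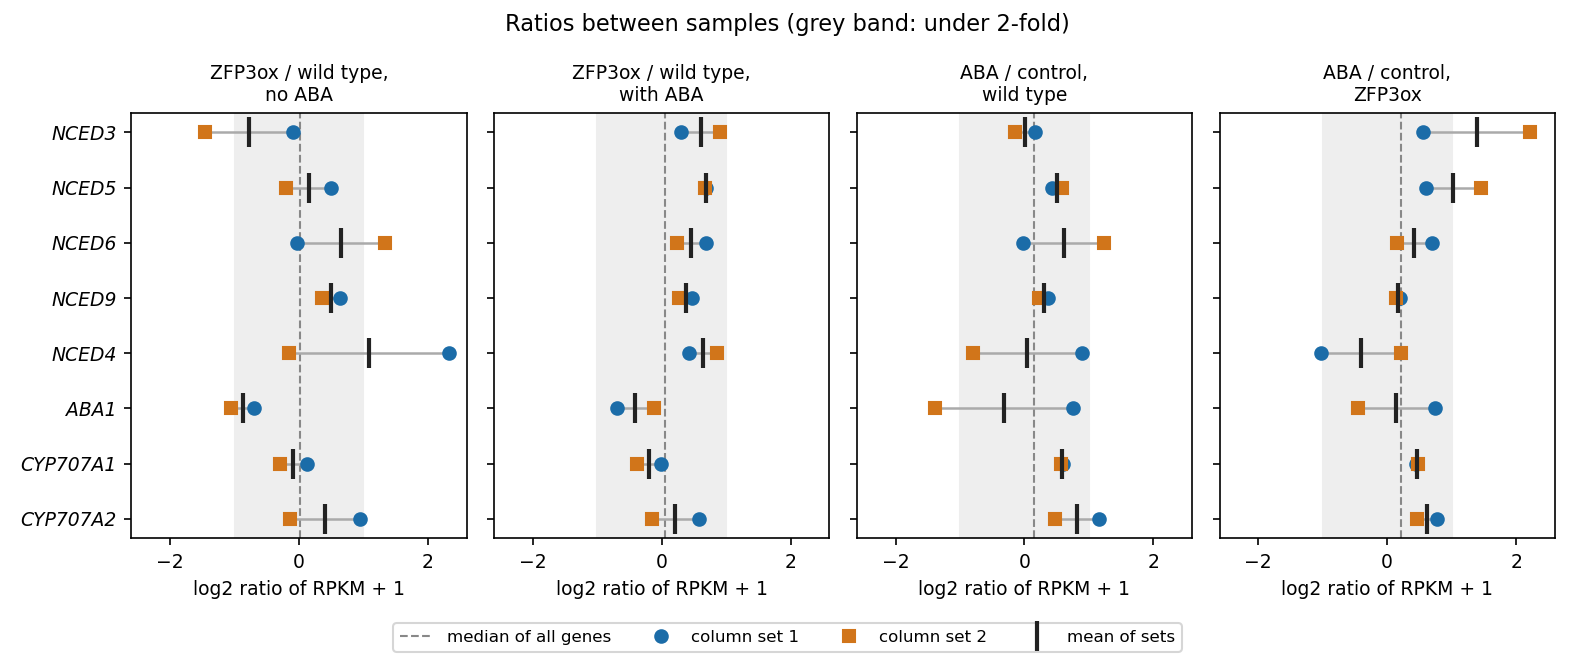
Log2 ratios of RPKM + 1 (x axis) for the 8 measured genes in 4 comparisons, with circles for column set 1, squares for column set 2 and a bar for their mean. The grey band marks ratios under 2-fold and the dashed line the median of all genes. Bars outside the band are NCED4 without ABA (1.09) and NCED3 and NCED5 for ABA in ZFP3ox (1.39 and 1.03), and the CYP707A1 points of both sets nearly coincide in the ABA comparisons.

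Taking both genotypes, 4 of 8 genes were higher with ABA in all 4 ratios, NCED5, NCED9, CYP707A1 and CYP707A2, and 0 were lower in all 4, where 19.6% and 7.33% of all genes were. Relative to the median ratio of all genes in each set, NCED5, CYP707A1 and CYP707A2 stayed above in all 4, as 10.9% of all genes did, and NCED9 did not. None of the 8 lay below it in all 4, where 12.1% of all genes did. The ABA ratio averaged over genotypes was tested with limma on an additive model of the 4 samples, whose 1 residual degree of freedom is the departure from additivity. With this limma fit 0 of 8 genes passed an adjusted p of 0.05, where 0.649% of all genes did, and 2 had an unadjusted p under 0.05, where 19.1% of all genes did. These were NCED5, higher by 0.76 (standard error 0.25, limma adjusted p = 0.19), and CYP707A2, higher by 0.71 (standard error 0.23, limma adjusted p = 0.19). CYP707A1 was higher by 0.52 (standard error 0.23, limma adjusted p = 0.271) and NCED3 by 0.70 (standard error 0.34, limma adjusted p = 0.3).

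For the genotype ratio averaged over treatments, limma gave 0 of 8 genes past an adjusted p of 0.05, where 0.00883% of all genes passed. Unadjusted, 3 had p under 0.05, where 7.29% of all genes did. They were NCED4 (higher in ZFP3ox by 0.86, standard error 0.24), NCED6 (higher by 0.55, standard error 0.23) and ABA1 (-0.64, standard error 0.25), with limma adjusted p of 0.684, 0.685 and 0.684. ABA1 had the same sign in all 4 measured ratios, which NCED4 and NCED6 did not. The smallest limma-trend adjusted p of the members was 0.155 for ABA and 0.648 for genotype, so that version made no call among them either.

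The genotype ratio with ABA was also compared with that without ABA. For NCED3 the ratio went from -0.78 without ABA to 0.60 with it, a difference of 1.38 in the mean, with 0.40 in set 1 and 2.36 in set 2. Both sets gave a negative ratio without ABA and a positive one with it, a pattern that 4.98% of all genes shared. For NCED5 the difference was 0.53 (0.18 and 0.88). The hydroxylase genes had differences of -0.11 for CYP707A1 and -0.19 for CYP707A2. In both sets 2 genes had a positive difference and 3 a negative one, where 27.7% and 24.4% of all genes did. None of the 8 genes passed the 4-fold rule used for this difference, where 0.336% of all genes were higher and 0.185% lower, and a test of it would need more than the 1 sample in each group.

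Other genes of ABA supply, oxidation, conjugation and transport were read from a list of 34, of which 28 were in the table and passed the filter. Without ABA 0 of 28 differed by 2-fold between the genotypes, beside 0.954% higher and 1.58% lower over all genes. With ABA 1 was higher in ZFP3ox and 2 were lower, where 2.7% and 2.03% of all genes were. LUT1, a carotenoid hydroxylase gene of lutein synthesis, was higher (0.35 and 1.68), and CRTISO, the carotenoid isomerase gene (-0.25 and -1.91), and AAO2, an aldehyde oxidase gene (-0.22 and -3.13), were lower. All 3 calls came mainly from set 2: AAO2 had 50.27 RPKM there in wild-type ABA against 4.84 to 11.06 in the other samples, and 16.71 to 24.38 RPKM in set 1.

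In wild type with ABA, 1 of the 28 was lower and 1 higher, a share near the 2.86% and 4.65% of all genes. PSY, which encodes phytoene synthase at the entry to carotenoid synthesis, was lower by -1.52 and -1.18, with 44.94 and 15.03 RPKM in set 1 and 21.09 and 8.75 RPKM in set 2 for control and ABA. PSY was lower with ABA in ZFP3ox too, at 49.71 and 24.96 RPKM and at 15.17 and 9.17 RPKM, although not by 2-fold in the mean. The authors' deposited table of genes lower with ABA lists PSY with signed folds of -2.67 in wild type and -1.81 in ZFP3ox. CRTISO was higher with ABA in wild type through set 2 (0.06 and 2.34). In ZFP3ox 0 of 28 passed, where 4.55% of all genes were higher and 2.23% lower.

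AAO3, the aldehyde oxidase gene of the last step to ABA, had ABA ratios of 0.93 and -0.93 for wild type, with 0.81 and 0.48 for ZFP3ox. NCED2, the remaining dioxygenase gene of the family, was weak, at 2.72 to 13.73 RPKM in set 1 and 2.41 to 3.16 RPKM in set 2. CYP707A4, the fourth hydroxylase gene, was higher with ABA in both sets, by 0.68 and 0.04 for wild type, with 0.71 and 0.46 for ZFP3ox. The authors' deposited tables of selected genes, 4 in all with 167 to 803 rows, hold 0 of the 8 members.

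**Figure D5:**
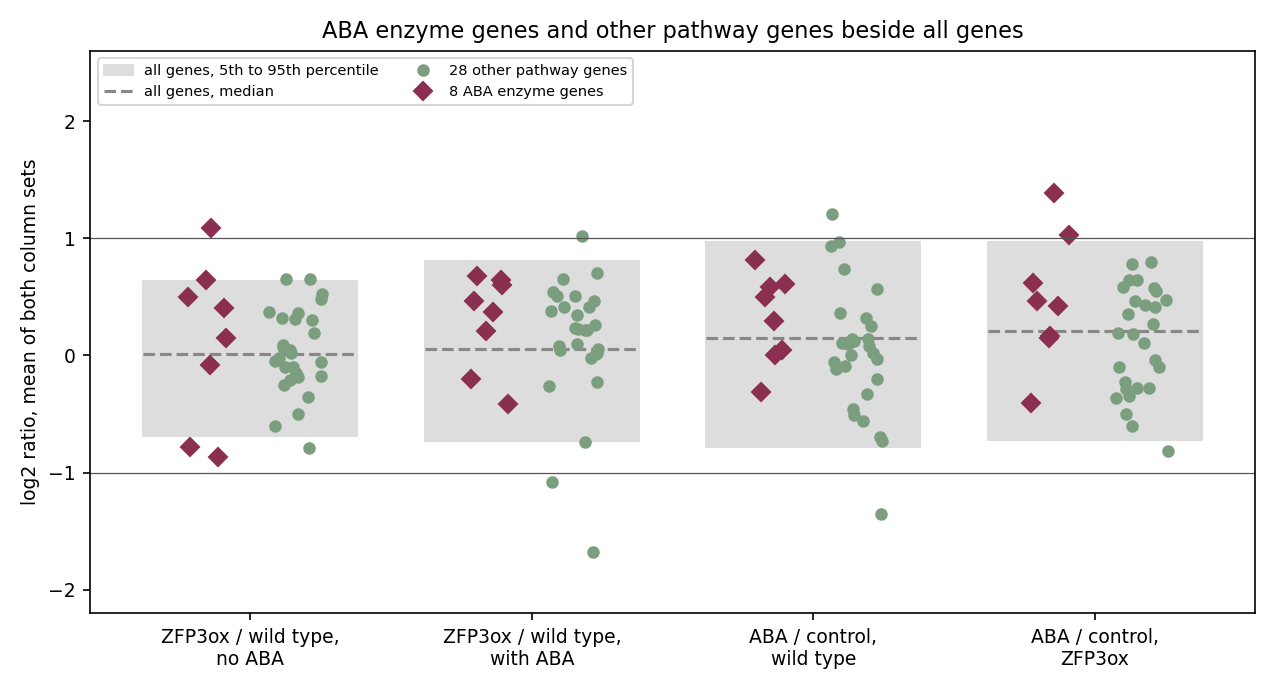
Log2 ratios (y axis, mean of both column sets) of the 8 ABA enzyme genes (diamonds) and 28 other pathway genes (circles) in 4 comparisons, with the band from the fifth to the 95th percentile of all kept genes, their median as a dashed line and thin lines at 2-fold. Most points lie inside the band, and the lowest circles are AAO2 in the genotype comparison with ABA and PSY for ABA in wild type. Diamonds outside the band are NCED3 (-0.78), ABA1 (-0.87), NCED4 (1.09) and NCED6 (0.65) between genotypes without ABA. For ABA in ZFP3ox they are NCED3 (1.39) and NCED5 (1.03).

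The 3 genes nearest to NCED3 over the 8 values centred within each set were PRP39-2, AT1G11490 and AT5G06480, at Euclidean distances of 0.411, 0.413 and 0.42 on the log2 scale. These 8 values come from 4 samples only. Like NCED3 they were low in ZFP3ox control in set 2 (3.48, 1.16 and 1.05 RPKM) and high in ZFP3ox ABA (19.46, 7.96 and 6.35 RPKM). The nearest other member was NCED5, at a distance of 1.05 and rank 554 among all genes, and CYP707A1 followed at rank 3214.

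Since reads with up to 10 matches were used, shared sequence between the members was measured on TAIR10.1. Coding sequences of NCED3 and NCED9 were 71.1% identical, those of NCED3 and NCED5 67.3%, and those of NCED3 and NCED4 54.7%. Of the 50-base windows along the exons of NCED3, 0.48% matched another place with at most 2 mismatches, all in NCED9, and of those of NCED9 0.61% did, all in NCED3. CYP707A1 shared 1.4% of its windows with CYP707A3, whose coding sequence was 82.6% identical to it. NCED4, NCED5, NCED6, ABA1 and CYP707A2 had 0 such windows. Under these settings few reads of a single member would match other places, as far as this assembly stands for the one the authors used. Whether the settings cover both column sets is not given.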

How the data were processed

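RNA of 4 seedling samples was sequenced as 50-base reads in colour space on a SOLiD instrument after removal of ribosomal RNA, per the labels' protocols. The authors deposited expression values per gene, read here as RPKM, although the set 2 values show no division by gene length. The settings that the authors deposited name strand-specific matching with at most 2 mismatches, and reads with up to 10 matches were kept; program, aligner and build: not given in the sources used here, nor whether the settings cover both column sets. The authors' tables of selected genes hold signed fold changes, a score per gene.

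Features were tied to locus codes in the table (23439) or by symbol to RefSeq's TAIR10.1 genes (82). Genes with at least 1 RPKM in both columns of at least 1 sample were kept (22646). Values were log2(RPKM + 1), so ratios of weak genes are understated. Ratios were taken within a column set and averaged. The averaged ABA and genotype effects were fitted with limma 3.58.1 in R 4.3.3 on all kept genes, with Benjamini-Hochberg adjustment and a prior of 6.7 degrees of freedom, and the fit was checked on simulated data. Its p-values set an effect against the departure from additivity, which also holds any real interaction; no spread between samples of a group is measured. Depth of set 1 was read from the steps of the 2000 lowest genes, after multiplying by gene length. Of the values used, 63.0% to 70.0% lay within 0.1 of a whole read, against 29.0% to 35.2% in set 2. Set 2 values show no division by length, so the method does not suit them. The depth of set 1 puts members at about 32.7 to 576 reads there, with no counting interval, since the match to whole reads was partial. Coding identity came from global alignment (Biopython 1.88).

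The members, lists and rules (every member, and other pathway genes past 2-fold with the same sign in both sets, plus AAO3, NCED2 and CYP707A4, chosen after their values were seen) were chosen with earlier results of these data known. Alternatives were other pseudocounts, scaling, filter, single column sets and limma-trend. TAIR10.1 coordinates are those of the reference and were not used for the expression values.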

Additional observations from a re-analysis of the deposited data

Results flagged for a closer look

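NCED3 was the only member whose ratio of ZFP3ox to wild type was negative in both column sets without ABA and positive in both with ABA. The difference between the mean ratios was 1.381 on the log2 scale (0.40 in set 1 and 2.36 in set 2). It was not tested, since each group has 1 sample. Most of it came from the 1.58 RPKM of ZFP3ox control and the 10.99 RPKM of ZFP3ox ABA in set 2. Of all genes 4.98% showed this pattern of signs and 3.54% the opposite one.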

How the results depend on the processing

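The counts of members past 2-fold depended on the column set and on the pseudocount. For ZFP3ox against wild type without ABA, 1 gene passed in the mean of the sets, 0 with a pseudocount of 5 RPKM and 3 in column set 2 alone (NCED6 higher, NCED3 and ABA1 lower). In set 2 alone 242 of all 22646 genes were higher and 2142 lower, and in set 1 alone 1895 and 272, against 216 and 357 in the mean. NCED4, the called gene, reversed to -0.16 in column set 2 alone. For ABA in wild type, 0 passed in the mean, 1 in set 1 alone (CYP707A2) and 2 in set 2 alone (NCED6 higher, ABA1 lower), where all genes gave 2773 higher and 1101 lower by set 1 and 1492 higher and 1331 lower by set 2. For ABA in ZFP3ox, 2 passed in the mean, 0 with a pseudocount of 5 RPKM, 1 with median-of-ratios scaling (NCED3, 1.21, while NCED5 had 0.85) and 1 in set 1 alone (NCED4, lower, as were 1243 of all genes). For the difference of genotype ratios, 1 passed in set 2 alone (NCED3, 2.36), as did 574 of all genes in that direction. The cause was not tested beyond what these settings build in: a larger pseudocount shrinks ratios of weak genes. With ABA the count of 0 between genotypes held under all 6 alternatives, as did the 0 calls by limma (lowest adjusted p 0.0962 to 0.567 for ABA and 0.288 to 0.819 for genotype). Median-of-ratios scaling moved the median ABA ratio of all genes from 0.15 to 0.003 in wild type and from 0.21 to 0.02 in ZFP3ox, and the split of all genes past 2-fold from 1054 higher and 647 lower to 719 and 930, and from 1031 and 506 to 554 and 915. With ABA present the genotype split went from 612 higher and 460 lower to 483 and 562. Under that scaling 4 of 40 member ratios changed sign, against 6 in set 1 alone, 9 in set 2 alone and 0 with other pseudocounts or no filter. No paired analysis was possible because each group has 1 sample. The headers number the 2 columns of a sample, which count as 1 replicate here, and ratios were taken within a number.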
